A study of Mus musculus with 6 samples.

Results

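Regions of accessible chromatin that lie at or beside a gene start and were found in only 1 of the 2 palatal tissues are described here. Nucleosome-free peaks from 3 libraries of palatal epithelium and 3 libraries of palatal mesenchyme were merged wherever they shared at least 1 bp, which gave 707876 merged regions. A region was called epithelium-only when it held a peak in all 3 epithelium libraries and in no mesenchyme library, and mesenchyme-only in the opposite case. Regions were then selected when an edge lay within 1 kb of the start of a protein-coding transcript in the mouse mm10 annotation. This left 268 epithelium-only regions, nearest to 263 genes, and 228 mesenchyme-only regions, nearest to 225 genes, together 496 regions. Because the regions were chosen by the presence and absence of peaks, the peak widths given below for the 2 tissues describe the selection and carry no test.

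The libraries were made by ATAC-seq, in which the transposase Tn5 cuts and tags DNA that is not wrapped in nucleosomes, from palates of C57BL/6 mouse embryos at E14.5, an embryonic stage at which the palatal shelves meet. After cold trypsin digestion, the epithelium was peeled off by hand from the palatal shelves, and what remained of each shelf was collected as the control. The labels describe that remainder as mostly, not purely, mesenchymal, and the peeled sheet holds the basal layer and the periderm together. Neither group carried an allele or an agent, about 20000 cells went into each library, and the number of embryos or shelves behind a replicate is given differently in different sources.

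The promoter is the stretch of DNA around a transcript start where the transcription machinery assembles. Many genes have several promoters, and the choice among them can change the first exon and with it the protein. Promoters of genes used in most cells commonly lie in CpG islands and stay accessible in most tissues, whereas promoters with few CpG dinucleotides are more often accessible in only some tissues. Here the main start of a gene is that of its principal transcript in the annotation, and every other protein-coding start of the gene is an alternative start. A region counted as lying at a main start when any gene's main start was within 1 kb, and otherwise as lying at an alternative start.

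The following windows show the DNA around starts that lay inside tissue-only regions. They were taken from marker genes on the lists of epithelial, mesenchymal and other cell types and from genes whose alternative start was tissue-only while the main start lay in a region found in all 6 libraries. Each window has 200 bases of the RefSeq GRCm38.p6 (mm10) genome on the strand of the gene, the start is the base at position 121, and capitals mark matches to a panel of transcription factor motifs whose letters are given further on. The first 4 come from epithelium-only and the last 4 from mesenchyme-only regions.
Trp63, main start, Trp63-201, chr16:25801796-25801995, plus strand: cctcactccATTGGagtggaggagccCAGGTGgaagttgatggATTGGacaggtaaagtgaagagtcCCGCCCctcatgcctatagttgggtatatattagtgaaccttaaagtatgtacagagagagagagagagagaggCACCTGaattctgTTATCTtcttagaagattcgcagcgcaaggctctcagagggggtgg
Dst, alternative start, Dst-213, chr1:34160210-34160409, plus strand: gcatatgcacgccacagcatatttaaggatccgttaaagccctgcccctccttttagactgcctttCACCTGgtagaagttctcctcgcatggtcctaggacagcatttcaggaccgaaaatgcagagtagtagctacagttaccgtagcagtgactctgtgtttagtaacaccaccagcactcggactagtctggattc
Fgfbp1, main start, Fgfbp1-201, chr5:43981685-43981884, minus strand: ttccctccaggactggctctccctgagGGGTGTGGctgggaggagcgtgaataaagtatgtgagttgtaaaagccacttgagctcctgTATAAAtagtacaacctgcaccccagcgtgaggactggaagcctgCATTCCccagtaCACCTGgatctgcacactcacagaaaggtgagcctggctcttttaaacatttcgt
Specc1l, alternative start, Specc1l-201, chr10:75229735-75229934, plus strand: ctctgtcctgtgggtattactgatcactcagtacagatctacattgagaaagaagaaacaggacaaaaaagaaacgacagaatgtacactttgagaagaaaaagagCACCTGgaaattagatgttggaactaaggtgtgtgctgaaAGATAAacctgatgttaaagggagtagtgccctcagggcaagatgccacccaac
Tie1, main start, Tie1-201, chr4:118489982-118490181, minus strand: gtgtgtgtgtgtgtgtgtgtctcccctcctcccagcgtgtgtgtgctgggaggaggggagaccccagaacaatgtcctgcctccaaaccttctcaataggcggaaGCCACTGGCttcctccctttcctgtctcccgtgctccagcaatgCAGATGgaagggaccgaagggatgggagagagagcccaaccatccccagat
Fto, alternative start, Fto-206, chr8:91390435-91390634, plus strand: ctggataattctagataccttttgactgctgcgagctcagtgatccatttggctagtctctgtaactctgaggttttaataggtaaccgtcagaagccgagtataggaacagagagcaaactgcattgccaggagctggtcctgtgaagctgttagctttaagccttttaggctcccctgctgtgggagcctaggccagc
Insig2, alternative start, Insig2-213, chr1:121323112-121323311, minus strand: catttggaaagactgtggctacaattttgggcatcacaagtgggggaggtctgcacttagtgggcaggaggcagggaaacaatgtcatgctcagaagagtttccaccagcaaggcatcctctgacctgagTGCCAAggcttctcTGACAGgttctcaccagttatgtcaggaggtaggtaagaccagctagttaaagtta
Polg, alternative start, Polg-215, chr7:79453707-79453906, minus strand: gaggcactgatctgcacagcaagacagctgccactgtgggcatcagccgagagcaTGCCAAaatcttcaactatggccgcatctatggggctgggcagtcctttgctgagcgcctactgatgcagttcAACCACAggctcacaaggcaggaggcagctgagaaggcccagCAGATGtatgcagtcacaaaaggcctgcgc
The CAGGTG letters of the ZEB E-box, which bind the ZEB and SNAI families of repressors, or their reverse complement CACCTG, occurred in all 4 epithelium-only windows and in none of the 4 mesenchyme-only windows, but over all regions it was found in 23.9% of epithelium-only centres, 14.9% of mesenchyme-only centres and 17.6% of those in all libraries, a difference between tissues that was not called (adjusted p = 0.0713 by Fisher's exact test). The Fgfbp1 window had TATAAA, the TATA box, 32 bases before the start. The Fto window held no match to the panel. These matches are letters in a window and do not show that a protein was bound there.

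The 496 regions were a small part of the data. Of the 35275 merged regions within 1 kb of a protein-coding start, 0.76% were epithelium-only and 0.646% were mesenchyme-only, whereas over all 707876 merged regions 1.44% were epithelium-only and 1.07% were mesenchyme-only. Regions with a peak in all 6 libraries made up 17682 of the regions near starts. The epithelium libraries held 270003 to 349322 peaks and the mesenchyme libraries 295141 to 341741. The number of reads behind the peaks is not known from the deposited lists, which give positions only, so a missing peak means that the peak caller reported none at that library's depth.

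Most labelled cell type markers did not differ in this all-or-none way. Trp63 had a peak over its main start in all 3 epithelium libraries and in none of mesenchyme, and the osteoblast regulator Runx2 had one in no epithelium library and in all 3 of mesenchyme. Krt14 had peaks in 3 epithelium libraries and 1 mesenchyme library, and Krt18 and Epcam in 3 and 2. Osr2, a palatal mesenchyme factor, went the other way, with a peak over its main start in 3 epithelium libraries and 1 mesenchyme library. The other 11 of the 17 markers, among them Krt5, Cdh1, Prrx1, Twist1 and Col1a1, had peaks over their main start in all 6 libraries. This is common among genes in general, since the main start of 14753 of all 21829 gene symbols lay in a region found in all 6 libraries.

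Alternative starts made up close to the same share of both kinds. Of the epithelium-only regions 131 of 268 (48.9%, 95% Wilson interval 43.0 to 54.8) lay at an alternative start, against 113 of 228 mesenchyme-only regions (49.6%, 43.1 to 56.0). The odds ratio was 0.97, with a 95% interval of 0.673 to 1.41 (Fisher's exact test, two-sided, p = 0.928), an interval that spans differences in either direction. Regions are not replicates of a tissue, and this and the other Fisher tests describe the regions of these 6 libraries.

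Tissue-only regions differed from the regions found in every library in this respect. Together 244 of the 496 tissue-only regions (49.2%) lay at alternative starts, against 3070 of 17682 regions found in all 6 libraries (17.4%, 16.8 to 17.9), with an odds ratio of 4.61 (3.83 to 5.54; Fisher's exact test, two-sided, p = 3.97e-57). The median width was 617.5 bp for epithelium-only regions and 549 bp for mesenchyme-only regions, against 1880 bp for the regions found in all libraries, and a wider region has more starts within reach of its edges. When the distance was taken from the region's centre instead of its edge, the shares were 49.5% of 378 tissue-only regions and 17.7% of 14713 regions in all libraries, with an odds ratio of 4.55 (3.69 to 5.63). With starts up to 2 kb away the odds ratio was 2.96. Other regions missing from at least 1 library were not compared, so the share is not shown to be particular to tissue-only regions. Nor is it shown to exceed the share among annotated starts. The annotation has 54327 distinct protein-coding starts for 21853 genes with 1 main start each, so most of its starts are alternative ones. In single libraries, alternative starts made up 26.3 to 28.1% of near-start peaks outside the 496 regions. The starts themselves also differed in the annotation. The nearest start belonged to a transcript of support level 1 or 2, the best supported classes, in 57.1% of epithelium-only regions and 53.5% of mesenchyme-only ones, and in 77.8% of regions in all 6 libraries.

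**Figure D1:**
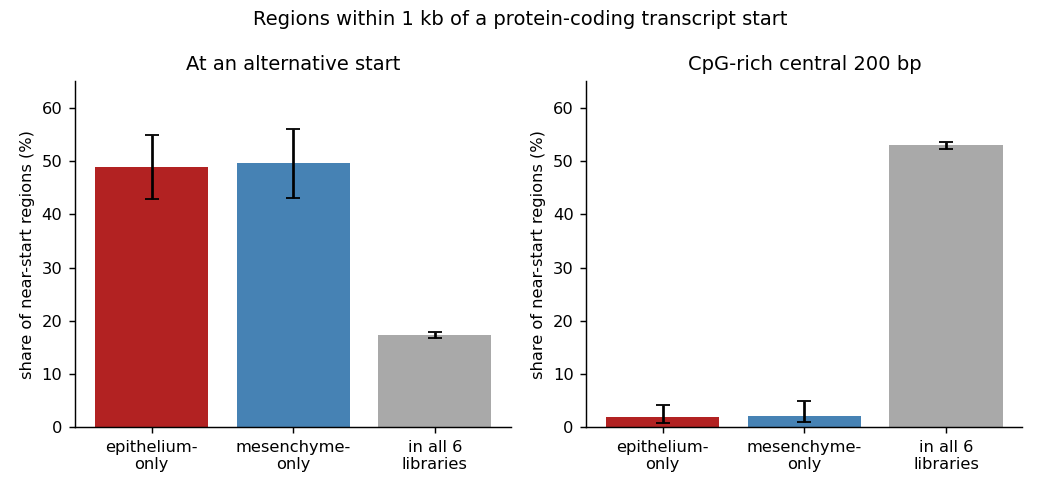
Shares of regions within 1 kb of a protein-coding transcript start, in percent, for epithelium-only (n = 268), mesenchyme-only (n = 228) and all-library (n = 17682) regions, with bars for the share and whiskers for the 95% Wilson interval. Left, alternative starts made up 48.9% and 49.6% of the tissue-only kinds and 17.4% of the all-library regions; right, a CpG-rich centre was found in 1.87% and 2.19% of the tissue-only kinds and in 52.9% of the all-library regions.

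The same share was computed for each whole library, over every peak within 1 kb of a start but with the 496 regions left out. Alternative starts accounted for 26.3, 27.9 and 26.9% of near-start peaks in the epithelium libraries and for 27.6, 28.1 and 27.7% in the mesenchyme libraries. The groups overlapped, and the means of 27.0 ± 0.848% for epithelium and 27.8 ± 0.296% for mesenchyme (SD, n = 3 libraries each) differed by -0.764 percentage points (exact permutation test, two-sided, p = 0.3, where 0.1 is the smallest p that 3 against 3 libraries allow).

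Few of the tissue-only regions were rich in CpG dinucleotides. A centre was called CpG-rich when its middle 200 bp had at least 50% GC and at least 0.6 of the CpG dinucleotides that its base composition would give. Of epithelium-only regions 5 (1.87%) were CpG-rich and of mesenchyme-only regions 5 (2.19%), with an odds ratio of 0.85 (0.193 to 3.74; Fisher's exact test, two-sided, p = 1), against 9355 (52.9%) of the regions found in all libraries. Without epithelium library 3 the odds ratio between the tissues was 0.41 (Fisher's exact test, p = 0.0313), and without mesenchyme library 2 it was 1.50 (Fisher's exact test, p = 0.378). At main starts the CpG-rich regions were 4 of 137 epithelium-only and 3 of 115 mesenchyme-only, against 59.1% of the all-library regions at main starts. Of these regions only 61 epithelium-only and 33 mesenchyme-only ones covered a start, against 93.7% of the all-library ones. The centre was thus often beside the start, and the CpG content of the starts themselves was not measured. The median GC content was 48.0% in epithelium-only, 52.5% in mesenchyme-only and 62.0% in all-library regions, and the median ratio of observed to expected CpG was 0.201, 0.215 and 0.649 in the same order. Interspersed or simple repeats covered 50% or more of the centre in 17 epithelium-only (6.34%) and 25 mesenchyme-only regions (11.0%), against 1.90% of the all-library regions.

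Most tissue-only regions lay beside a start, not over it. The start itself lay inside 103 of the epithelium-only regions (38.4%) and 66 of the mesenchyme-only regions (28.9%), against 90.8% of the regions in all 6 libraries. Among regions at main starts, 61 of 137 epithelium-only regions (44.5%) and 33 of 115 mesenchyme-only ones (28.7%) covered a start, and among those at alternative starts 42 of 131 (32.1%) and 33 of 113 (29.2%) did. Centres lay upstream of the nearest start in 48.9% of epithelium-only regions and 49.1% of mesenchyme-only ones, but in 29.3% of all-library regions.

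**Figure D2:**
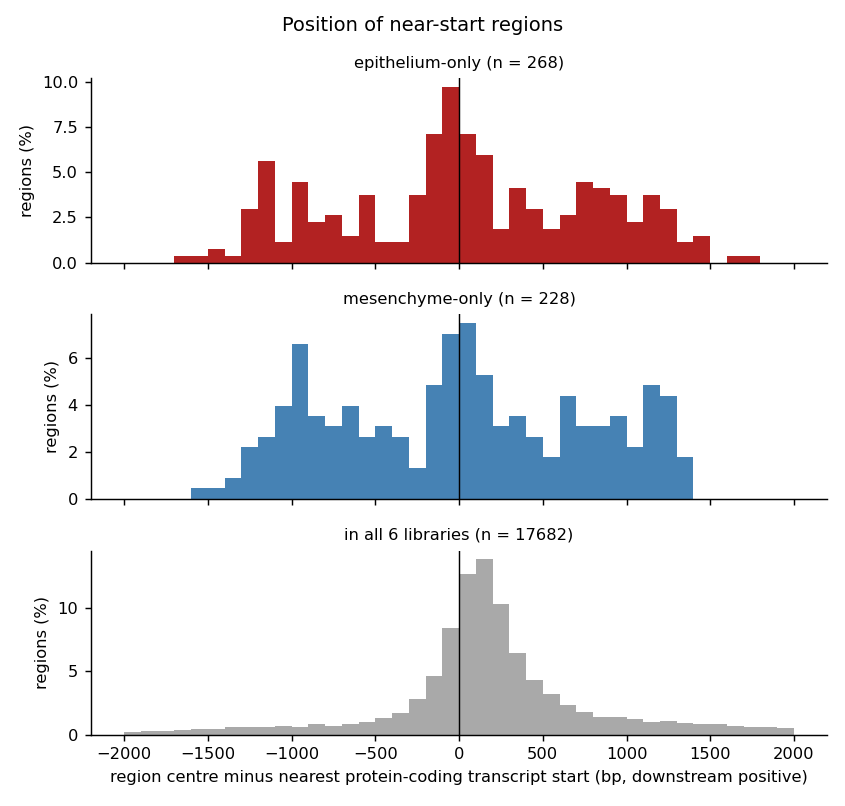
Distance in bp from the nearest protein-coding transcript start to the centre of each near-start region, downstream positive, as the percent of regions per 100 bp, for epithelium-only (top, n = 268), mesenchyme-only (middle, n = 228) and all-library regions (bottom, n = 17682, those beyond 2000 bp not drawn). The tissue-only regions spread over the whole window, with median distances of 594.5 bp (epithelium-only) and 664 bp (mesenchyme-only), whereas the all-library regions are gathered just downstream of the start, with a median of 274 bp.

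In the annotation, the centre of 151 epithelium-only (56.3%) and 136 mesenchyme-only regions (59.6%) fell in an intron. Between genes lay 75 (28.0%) and 43 (18.9%), in a coding exon 16 (5.97%) and 30 (13.2%), and in an untranslated exon 26 (9.70%) and 19 (8.33%). The coding-exon regions of mesenchyme were mostly at alternative starts, where they were 21 of 113, against 5 of 131 in epithelium.

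The epithelium-only regions were ranked by the narrowest of their 3 own peaks, since the lists give widths but no heights. The widest of all lay at an alternative start of Specc1l, which encodes a protein that joins actin and microtubules and is known from human facial clefting. Its widest peak was 1875, 1731 and 1489 bp in epithelium libraries 1 to 3, against none in mesenchyme. The region, chr10:75229253-75231631, held the start of Specc1l-201, 17782 bp downstream of the main start, and that main start had a peak in all 6 libraries. The transcript has support level 5, the weakest class.

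Dst showed the same arrangement with a better supported start. Dst encodes dystonin, a linker of the cytoskeleton with known neuronal, muscle and epithelial forms, of which the epithelial form ties keratin to hemidesmosomes. Its epithelium-only region was 871, 1032 and 992 bp wide in the epithelium libraries, against none in mesenchyme. It covered the start shared by Dst-213, Dst-215 and Dst-217, of support level 1, which lies 148505 bp downstream of the main start and inside an intron of the longer forms. Each epithelium library, but none of mesenchyme, had a peak over that base, while the main start, and the start 103600 bp upstream of it, had a peak in all 6 libraries.

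Specc1l and Dst were among 33 epithelium-only regions that covered an alternative start of a gene with its main start in an all-library region. Another was Dnm3, a dynamin of membrane fission, with peaks of 1083, 1113 and 953 bp in epithelium and none in mesenchyme, at Dnm3-205, 182454 bp downstream of the main start. Slc39a10, a zinc importer, had 852, 1376 and 894 bp in epithelium, 34024 bp upstream of its main start. Fam189a1 had 786, 996 and 954 bp in epithelium. The others among the first 10 were the protease gene Blmh, the filopodial motor Myo10, the adherens junction gene Plekha7, Thap4 and the TGF-beta effector Smad3, whose narrowest epithelial peaks were between 453 and 630 bp. At Smad3 only 1 epithelium library had its peak over the base itself, although the merged region covered it.

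At main starts, the widest epithelium-only region belonged to Dapl1, a gene known from early epithelial differentiation, with peaks of 1027, 1248 and 954 bp in epithelium and none in mesenchyme. Agr2, a disulfide isomerase of secretory epithelia, had 726, 959 and 918 bp in epithelium. Its neighbour and relative Agr3 had 613, 683 and 284 bp. Rbbp8, which takes part in the repair of DNA breaks, had 859, 869 and 720 bp over its main start and a second epithelium-only region of 661, 442 and 392 bp just downstream. The remaining regions among the 10 widest were those of Macc1, with 785, 966 and 789 bp, and Ablim1, with 776, 1103 and 816 bp, both at alternative starts. For Macc1, a regulator named for colon cancer, the main start had no peak in any of the 6 libraries.

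Trp63 encodes p63, the transcription factor of basal and stratified epithelia. Its main start in the annotation is the internal one shared by Trp63-201, Trp63-203, Trp63-204 and Trp63-205, and the gene has further starts 118151 and 118153 bp upstream. The internal start lay in an epithelium-only region, chr16:25801628-25802184, with peaks of 383, 557 and 352 bp in the 3 epithelium libraries and none in mesenchyme. No library of either tissue had a peak over the upstream starts. Trp63 was the only 1 of the 26 epithelial transcription factors on the list with a near-start epithelium-only region. Of the other 25 factors, none had a mesenchyme-only region. In 22 of the 26 the main start lay in a region found in all 6 libraries, as it did for 14753 of all 21829 gene symbols.

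Fgfbp1, which encodes a carrier that releases FGFs from the matrix, was the only member on the list of 23 epithelial signals and receptors. Peaks of 874, 526 and 463 bp covered its main start in epithelium, with none in mesenchyme. Dst was the only 1 of 39 genes for adhesion, keratins and splicing. Zeb2, a repressor of epithelial genes, was on the list of 39 mesenchyme transcription factors, and yet its region was epithelium-only, with 1149, 1343 and 671 bp in epithelium. It lay 995 bp from an alternative start with support level 5, 90364 bp downstream of the main start, and the main start of Zeb2 had a peak in all 6 libraries.

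Among the 61 epithelium-only regions that covered a start near a main start were some of genes known from surface and barrier epithelia, beside others of muscle, nerve and eye genes such as Lmod2, Cntn6 and Crb1. The genes named in this paragraph were picked after their values were seen, so that they illustrate the regions and measure nothing about them. Sprr1a, a cornified envelope protein, had 712, 993 and 727 bp in the 3 epithelium libraries. The cornified envelope gene Scel had 591, 623 and 492 bp, and Abca12, a lipid transporter of the skin barrier, had 921, 400 and 256 bp. Sptlc3, a subunit of the enzyme that starts sphingolipid synthesis, had 493, 515 and 427 bp. The membrane serine proteases Tmprss11a, Tmprss11b and Tmprss13 each had a peak over the main start in every epithelium library and none in mesenchyme, with narrowest peaks of 199, 619 and 499 bp. The others in this group were Gsdmc, Pof1b, Aldh1a1, which makes retinoic acid, and Gsta3, a glutathione transferase. Tmprss11a, Tmprss11b and Gsdmc belong to clustered gene families in mice, and whether reads were shared among copies is not known from the peak lists.

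**Figure D3:**
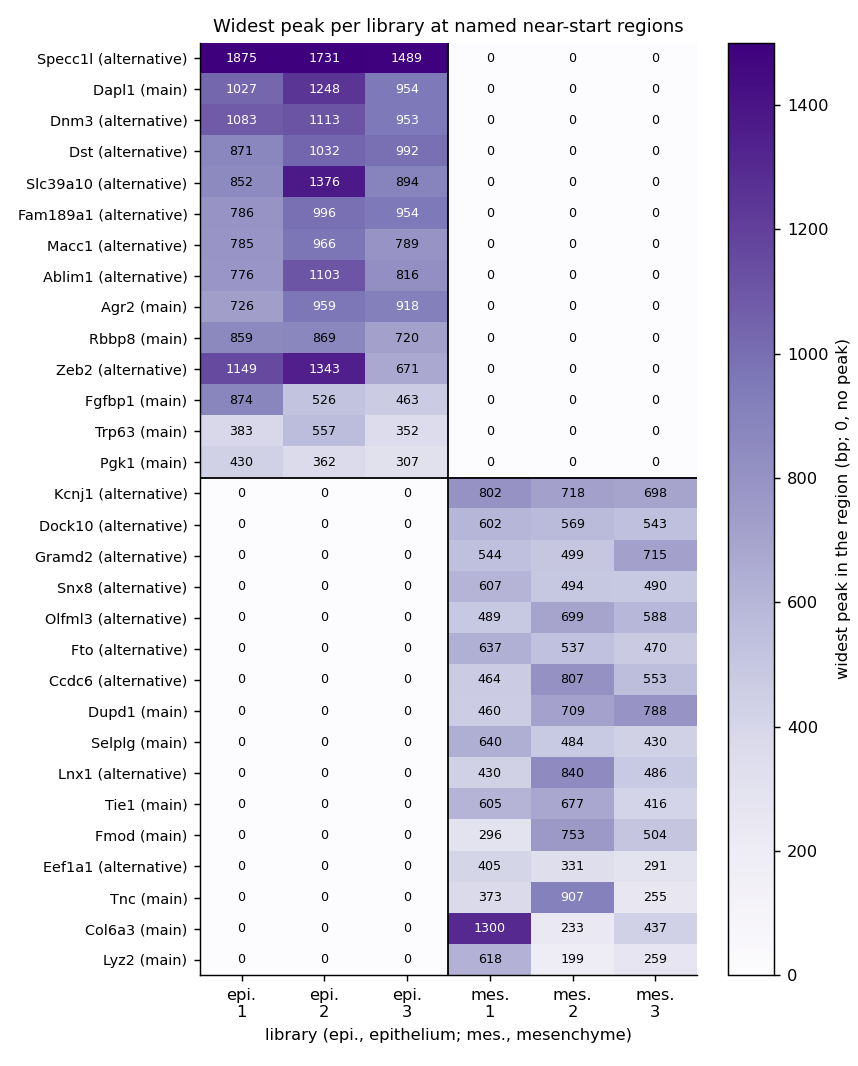
Width in bp of the widest peak in each library at the near-start regions of listed marker genes and of the 10 widest regions per tissue, with 0 for no peak; epithelium-only regions are above and mesenchyme-only regions below the line, with the start class in brackets. Every region has 3 values above 0 and 3 at 0, as the selection requires, and the epithelial widths reach 1875 bp at Specc1l, against 1300 bp at Col6a3 among the mesenchymal ones.

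Mesenchyme-only regions were narrower. The narrowest own peak had a median of 306.5 bp (199 to 1489) in epithelium-only and 240.5 bp (199 to 698) in mesenchyme-only regions. At least 500 bp in every own library was reached by 37 epithelium-only and 2 mesenchyme-only regions, and the smallest width in the lists, 199 bp, was the narrowest peak in 37 and 44. These widths are a description of regions that were selected on their peaks.

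The widest mesenchyme-only region lay in an intron of Kcnj1, a potassium channel gene, 350 bp from an alternative start, with peaks of 802, 718 and 698 bp in the mesenchyme libraries and none in epithelium. The main start of Kcnj1 had no peak in any library. Dock10, an activator of small GTPases, had 602, 569 and 543 bp in mesenchyme. Gramd2 had 544, 499 and 715 bp, Snx8, a sorting nexin, had 607, 494 and 490 bp, and Olfml3, a secreted matrix protein, had 489, 699 and 588 bp. All of these lay beside alternative starts and none covered one. Dupd1, a phosphatase of muscle, had a mesenchyme-only region of 460, 709 and 788 bp, 669 bp from its main start. The remaining regions of the 10 widest were at Fto, Ccdc6, Lnx1 and Selplg, the ligand that leukocytes use to bind P-selectin, which had 640, 484 and 430 bp in mesenchyme.

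In mesenchyme 27 regions covered an alternative start of a gene whose main start lay in an all-library region. The widest belonged to Fto, an RNA demethylase, with 637, 537 and 470 bp in the mesenchyme libraries, at Fto-206, 77030 bp downstream of the main start. Only 1 mesenchyme library had a peak over the base of that start, and epithelium library 2 had a separate peak upstream that did not overlap the region. Insig2, a sterol sensor of the endoplasmic reticulum, had 796, 392 and 850 bp in mesenchyme at Insig2-213, 4833 bp downstream of its main start, with peaks over the start in 3 mesenchyme libraries and no epithelium library. Polg, the mitochondrial DNA polymerase, had 602, 452 and 344 bp in mesenchyme, 12576 bp downstream, in a coding exon.

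Sp6, a zinc finger factor known from tooth and skin epithelium, was among them although its region was mesenchyme-only. Peaks of 307, 840 and 373 bp in mesenchyme covered the start of Sp6-201, 5339 bp upstream of the main start, with support level 1 and no peak in epithelium. The main start of Sp6 had a peak in all 6 libraries. Others of the first 10 included Tmem128, Ankrd17, the receptor phosphatase Ptprd, the intermediate filament gene Synm and the phosphodiesterase Pde10a, with narrowest mesenchymal peaks of 290 to 322 bp.

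**Figure D4:**
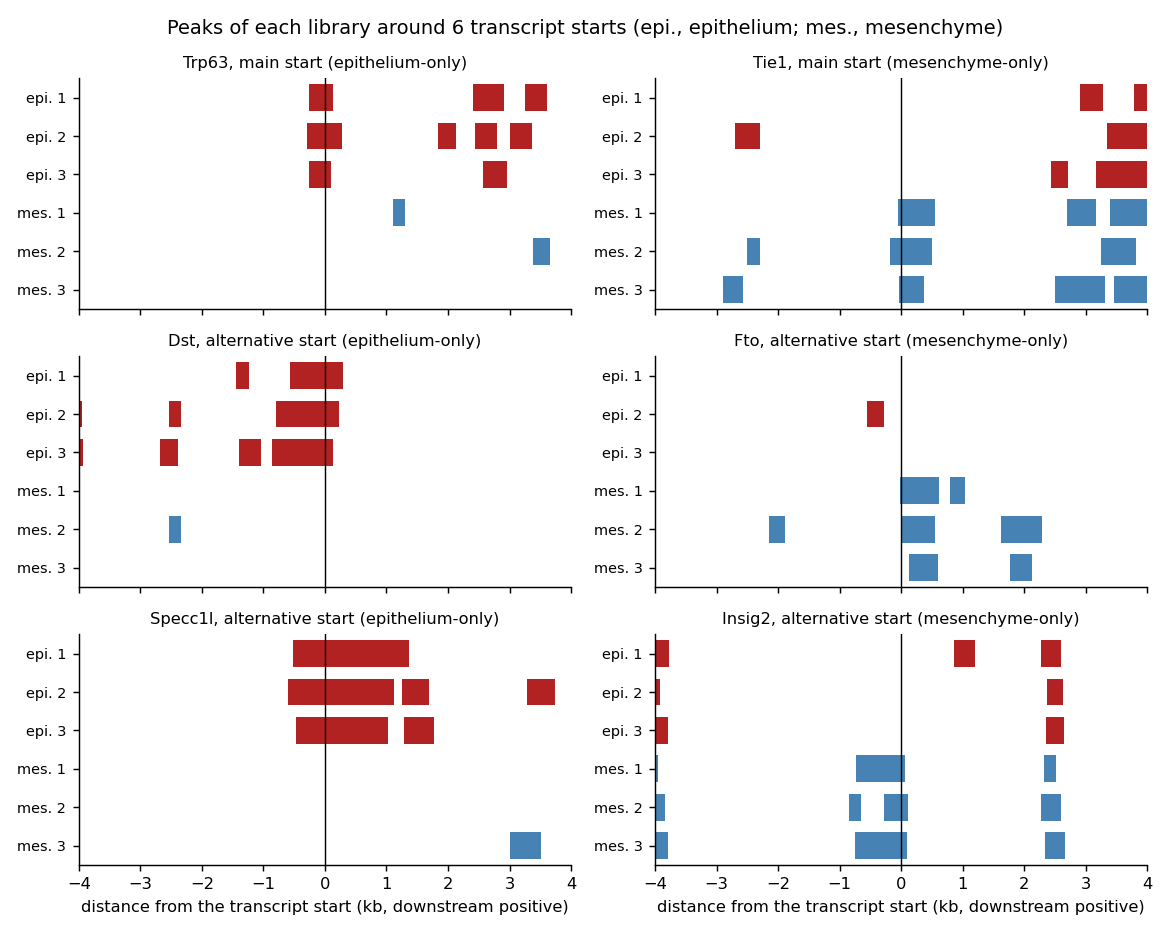
Peaks of each library within 4 kb of 6 transcript starts, by distance from the start in kb (downstream positive), with epithelium libraries in red above and mesenchyme libraries in blue below; left, epithelium-only starts of Trp63, Dst and Specc1l, and right, mesenchyme-only starts of Tie1, Fto and Insig2. At Trp63, Dst and Specc1l all 3 epithelium libraries and no mesenchyme library cover the start, at Tie1 and Insig2 the reverse holds, and at Fto only 1 mesenchyme peak reaches the start itself.

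Of the lists of mesenchymal genes, only that of matrix genes had mesenchyme-only members, 3 of 35, and all 3 regions lay beside a main start that had peaks in all 6 libraries. Col6a3, a chain of collagen VI, had peaks of 1300, 233 and 437 bp in mesenchyme, 785 bp from a start. Tnc, the matrix glycoprotein tenascin C, had 373, 907 and 255 bp, and Fmod, the collagen-binding fibromodulin, had 296, 753 and 504 bp. Library 1 had the widest peak at Col6a3 and library 2 the widest at Tnc and Fmod. None of 34 mesenchymal signals and receptors and none of 17 osteogenic genes had a tissue-only region near a start, in either direction.

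Genes of other cell types were also among the mesenchyme-only starts. Tie1, a receptor of endothelial cells, had peaks of 605, 677 and 416 bp over its main start in the 3 mesenchyme libraries and none in epithelium, and was 1 of 16 endothelial markers. Lyz2, the lysozyme of macrophages and neutrophils, was 1 of 14 immune markers, with 618, 199 and 259 bp in mesenchyme in a region that ended 6 bp short of the start, which no library covered. Over their lists, main starts with a peak numbered 8 to 10 of 16 endothelial markers in single epithelium libraries and 10 to 12 in mesenchyme, 1 to 4 of 14 immune markers in epithelium and 2 to 3 in mesenchyme, and 6 to 10 of 14 muscle markers in epithelium and 7 to 12 in mesenchyme. Among all 21829 gene symbols they numbered 14500 to 15100 in single epithelium libraries and 14767 to 15002 in mesenchyme. These list counts are therefore no measure of such cells. Muscle, nerve and glia, and erythroid lists had no member. What part such cells had in the mesenchyme-only regions was not tested. As a comparison, 2 of 16 control genes had a tissue-only region, Pgk1 in epithelium 961 bp from its start and Eef1a1 in mesenchyme 878 bp from an alternative start, although both had all 6 libraries at their main start. Over all 21829 gene symbols 2.30% had a tissue-only region within 1 kb of a start, so that the counts of 0 to 3 per list are too small to set any list apart.

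Some genes of blood and muscle that are on no list had tissue-only regions at their main start, in both directions, and those named here were picked after their values were seen. Runx1, a regulator of blood cell formation that is also used in other tissues, had 385, 307 and 337 bp in the mesenchyme libraries and none in epithelium. Pf4, a chemokine of platelets, had 388, 308 and 200 bp, and Gzmb, a protease of cytotoxic lymphocytes, had 199, 399 and 324 bp. Klhl31, a gene of skeletal muscle, had 356, 340 and 305 bp over its main start. Beside the main start lay the mesenchyme-only regions of Btla, with 495, 393 and 307 bp, of the Fc receptor gene Fcgr4, with 349, 252 and 375 bp, and of the osteoclast protease gene Ctsk, with 245, 361 and 360 bp. In the other direction, the muscle gene Lmod2 had 481, 555 and 321 bp over its main start in epithelium and none in mesenchyme. Epithelium-only regions also lay beside the main starts of Mymk, a factor of myoblast fusion, with 321, 443 and 503 bp, of the muscle growth inhibitor Mstn, with 204, 282 and 583 bp, and of the immune genes Fcgr1, with 307, 546 and 270 bp, and Fcrl1, with 278, 267 and 540 bp. Such genes were thus found on both sides, and no count of them was made. In bulk libraries, more cells of a type and more accessible chromatin per cell cannot be told apart.

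For regions at alternative starts, the state of the main start was recorded, which the selection did not use. The gene's main start lay in a region found in all 6 libraries for 97 of 131 epithelium-only regions (74.0%) and for 101 of 113 mesenchyme-only regions (89.4%), with an odds ratio of 0.34 (0.151 to 0.721; Fisher's exact test, two-sided, p = 0.00288). Among all-library regions at alternative starts the share was 79.3% of 3070. No library had a region over the main start for 19 epithelium-only regions, such as those of Macc1 and Mef2c, and for 4 mesenchyme-only regions, such as that of Kcnj1. This difference between the tissues did not pass the threshold under several alternatives. The odds ratio moved to 0.93 without mesenchyme library 2 (p = 0.814), to 0.66 without library 1 (p = 0.0922), to 0.67 without library 3 (p = 0.0896), to 0.71 with the most upstream start taken as main (p = 0.34) and to 0.52 with the start of the longest transcript (p = 0.0583), all by Fisher's exact test.

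Most alternative starts lay downstream of the main start, 100 of 131 in epithelium-only and 100 of 113 in mesenchyme-only regions. The median distance was 21312 bp (186 to 680467) for epithelium-only and 12715 bp (55 to 255190) for mesenchyme-only regions. In 123 and 107 of them the alternative start lay over 1 kb from the main start of its gene, and with those alone the share of alternative starts in tissue-only against all-library regions had an odds ratio of 4.45.

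A panel of 20 short motifs and 2 sets of shuffled letters was searched on both strands of the middle 200 bp. The letters were TGANTCA for AP-1, AACCNGTT for GRHL, GGAATG for TEAD, GCCNNNGGC for TFAP2, CCNCACCC for KLF, GGGCGG for the GC box, CCGGAAGT for ETS, AAGATGGC for YY1, CCAAT for NFY, TGTGGTT for RUNX, ACAATGG for SOX, CAGGTG for the ZEB E-box, CATCTG for the TWIST E-box, TTGGCA for the NF1 site, TGACAG for MEIS, TAATTA for homeobox factors, TGTTTAC for FOX, AGATAA for GATA factors, TATAAA for the TATA box and TTGCNNAA for CEBP, with ATNCGTA and GTTGTGT as controls. Matches of different motifs may overlap, and each region counted once per motif.

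GRHL, SOX and TEAD letters were more frequent in epithelium-only than in mesenchyme-only regions after Benjamini-Hochberg adjustment over the 22 (Fisher's exact test, two-sided). The panel was chosen with earlier results of these data known, and the number of motifs that passed changed with the setting, as given below. GRHL, bound by the grainyhead-like factors of surface epithelia, occurred in 13 epithelium-only regions (4.85%) and 1 mesenchyme-only region (0.439%), with an odds ratio of 11.57 (1.71 to 494) and an adjusted p of 0.0270. SOX occurred in 18 (6.72%) and 3 (1.32%), with an odds ratio of 5.40 (1.54 to 28.9) and the same adjusted p. TEAD, bound by the partners of YAP and TAZ, occurred in 57 (21.3%) and 26 (11.4%), with an odds ratio of 2.10 (1.24 to 3.62) and again the same adjusted p. In regions found in all libraries the shares were 0.899% for GRHL, 1.30% for SOX and 7.56% for TEAD, and over the main starts of all 21853 genes 0.966%, 1.83% and 7.50%. The matches were present in both start classes of epithelium-only regions, with GRHL in 6 of 137 at main and 7 of 131 at alternative starts, SOX in 10 and 8, and TEAD in 27 and 30.

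The 13 epithelium-only regions with GRHL letters and the single mesenchyme-only one are shown with 8 bases on either side, from the same genome, with the match in capitals and written on the strand that matches AACCNGTT.
Gsta3, epithelium-only, chr1:21240385-21240408, minus strand: gctggaagAACCTGTTccaagcag
Tmem131, epithelium-only, chr1:36944885-36944908, minus strand: agtgggggAACCTGTTtctccaat
Gm5269, epithelium-only, chr1:45889311-45889334, plus strand: actaaaatAACCTGTTttacaatt
Slc39a10, epithelium-only, chr1:46888181-46888204, minus strand: gaagggaaAACCTGTTgatacagc
Sptlc3, epithelium-only, chr2:139493962-139493985, minus strand: tggcaacaAACCTGTTtctgagag
Skint8, epithelium-only, chr4:111919431-111919454, minus strand: ccaggttcAACCAGTTtcctccag
E330009J07Rik, epithelium-only, chr6:40431522-40431545, minus strand: aaagggaaAACCAGTTctgatagg
Fam83b, epithelium-only, chr9:76546639-76546662, minus strand: cccaaagaAACCTGTTttcccaca
Mef2c, epithelium-only, chr13:83576549-83576572, plus strand: gacaatggAACCTGTTccttggcc
Rnase1, epithelium-only, chr14:51147919-51147942, minus strand: gaaggctgAACCTGTTgaaaagaa
Calcoco1, epithelium-only, chr15:102720519-102720542, minus strand: ctatttctAACCTGTTtccctgcc
Etv5, epithelium-only, chr16:22434726-22434749, plus strand: cgctcttaAACCTGTTcattcgcc
Ankrd22, epithelium-only, chr19:34166027-34166050, plus strand: gccaggggAACCGGTTtctgagtc
Epb41, mesenchyme-only, chr4:131937032-131937055, minus strand: ctgtgggtAACCAGTTccccaccc
The site beside Mef2c had the SOX letters acaatgg directly before it. Gsta3 and Sptlc3 carried the site inside the region that covered their main start, whereas the sites of Slc39a10, Fam83b, Etv5 and Mef2c were near alternative starts. The SOX matches included Agr3 and Tmprss11b as well as Btg1-ps1 and Btg1-ps2, whose sites were identical over the 23 bases compared, so that reads of these related genes may not be told apart.

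**Figure D5:**
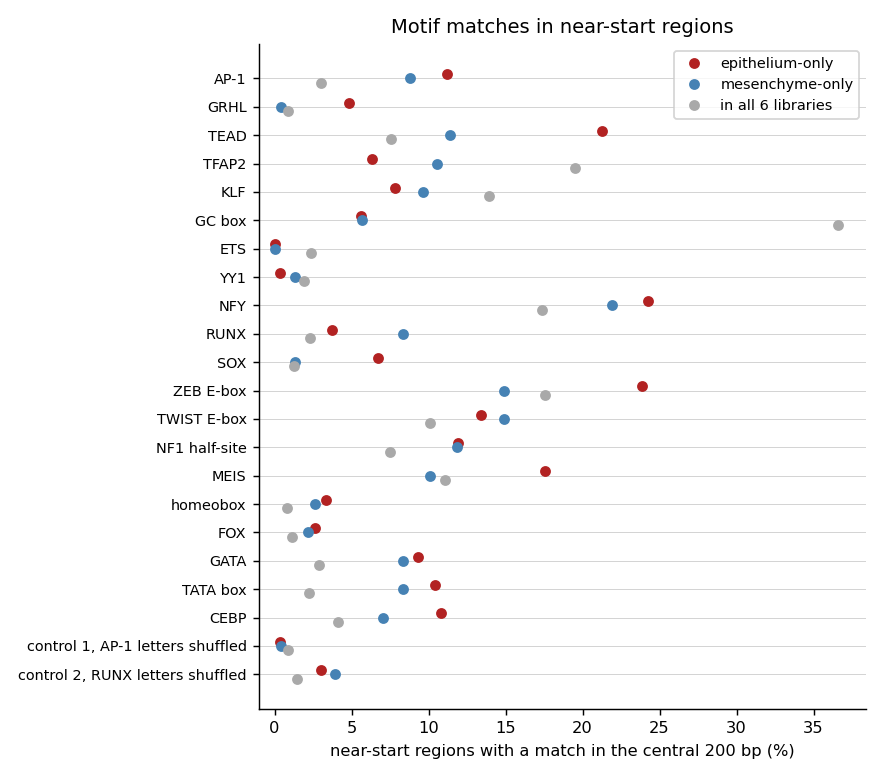
Percent of near-start regions with a match to each motif in the middle 200 bp, for epithelium-only (red, n = 268), mesenchyme-only (blue, n = 228) and all-library regions (grey, n = 17682). GRHL, TEAD and SOX stand higher in epithelium-only than in mesenchyme-only regions, and the GC box is at 5.60% and 5.70% of the tissue-only kinds, against 36.6% of all-library regions.

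Other motifs missed the adjusted threshold. The ZEB E-box was found in 23.9% of epithelium-only regions and 14.9% of mesenchyme-only ones (adjusted p = 0.0713 by Fisher's exact test), MEIS in 17.5% and 10.1% (adjusted p = 0.0868 by Fisher's exact test), and RUNX, the only one of these that was lower in epithelium-only regions, in 3.73% and 8.33% (adjusted p = 0.127 by Fisher's exact test). The AP-1 site, known from enhancers of many cells, was found in 11.2% and 8.77%, and in 3.00% of all-library regions. The shuffled controls were found in 0.373% and 2.99% of epithelium-only and in 0.439% and 3.95% of mesenchyme-only regions. ETS letters were absent from both tissue-only kinds, against 2.36% of all-library regions. The count of 3 motifs depended on the regions: it was 2 within strata of GC content, 1 with the widest peaks only, 5 with starts within 2 kb, and 0 with starts within 500 bp, with distances from the centre, with well-supported transcripts only or without epithelium library 1.

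Tissue-only regions near starts had others of their kind nearby. Within 100 kb another epithelium-only region was present for 63.4% of epithelium-only, 45.2% of mesenchyme-only and 47.3% of all-library regions, and another mesenchyme-only region for 42.2%, 65.4% and 57.7%. Since both the regions and their neighbours were selected in the same libraries, these shares are a description. Several genes had more than 1 region of a kind: Atp2b4, Mef2c, Rabgap1l, Rbbp8 and Vit had 2 epithelium-only regions each, and Diexf, Smarca4 and Synm had 2 mesenchyme-only regions each. Ablim1, which encodes an actin-binding LIM protein, was the only gene with one of each. Its epithelium-only region lay 886 bp downstream of an internal start and its mesenchyme-only region, with 313, 343 and 221 bp in mesenchyme, 934 bp upstream of a start next to it, and the starts between them had peaks in all 6 libraries.

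Counts of both kinds differed between chromosomes. The X chromosome, with 4.34% of the genes, held 11 of the 268 epithelium-only regions and none of the 228 mesenchyme-only ones. Among the 11 were those of Pgk1, Pof1b, Pak3, Bmx and Tmsb4x. Of all peaks, 2.07 to 2.24% lay on X in libraries of epithelium, against 1.37 to 1.56% in those of mesenchyme, and the part of this in the count was not tested. Chromosomes 6 and 12 held 23 and 15 epithelium-only regions, against 6 and 3 mesenchyme-only regions, whereas chromosomes 5, 9 and 11 held 11, 14 and 10 epithelium-only regions, against 23, 27 and 21 mesenchyme-only regions.

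The limit of 1 kb set which regions entered. Just inside it were the epithelium-only regions of Mto1 at 990 bp, Zeb2 at 995 bp and Zfp13 at 998 bp and the mesenchyme-only regions of Coil at 992 bp, Tnip2 at 995 bp and Prss53 at 998 bp. Just outside were epithelium-only regions near Slc7a1 at 1005 bp, Ect2 at 1014 bp and BC107364 at 1022 bp and mesenchyme-only regions near Fbxo48 and Oxa1l at 1002 bp and Rcan3 at 1014 bp. With each library left out in turn, the epithelium-only count was 369 to 560 and the mesenchyme-only count 349 to 612. Without epithelium library 2 or any 1 of the mesenchyme libraries, mesenchyme-only regions were the more numerous. Leaving out a library also loosens the rule, since its tissue then needs a peak in 1 library fewer than the other tissue. For the mesenchyme libraries, the change of order can therefore not be assigned to a particular library. Without epithelium library 2 the counts were 473 epithelium-only and 533 mesenchyme-only, although epithelium then needed the fewer peaks. Without epithelium library 1 they were 549 and 349, and without epithelium library 3 they were 560 and 422. The reason for this was not tested.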

How the data were processed

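The series holds 6 ATAC-seq libraries, 3 of palatal epithelium and 3 of palatal mesenchyme. The deposited files, made by the authors, hold 3 columns, the chromosome, start and end of each peak in mm10, with no height or p-value. Per the submitters' processing notes the tools were Trimmomatic 0.38, Bowtie2, SAMtools, deepTools 2.0 and MACS2 2.1.1, and the methods restrict the reads to fragments under 100 bp. A threshold for calling peaks was not given in sources used here. No peak lay beyond a chromosome end of the genome used.

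Starts were those of protein-coding transcripts in GENCODE M21. A main start was that of the transcript with the best APPRIS tag, then support level, then length. Python 3.11.15, pandas 2.3.3, SciPy 1.17.1 and pysam 0.24.0 were used, and the counting of regions and motifs was tested on simulated peaks. Both tissues were taken from the same shelves, but whether libraries of the same number share embryos is not stated, so the libraries were not paired. The correlations of their deviations were -0.013 to 0.00924 over all pairs, which cannot show whether they do. P-values over libraries measure only the spread between these libraries. Intervals cover counting error only.

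Named genes were the listed markers with a member region, the 10 regions per tissue with the widest narrowest peak, the first 10 alternative starts inside a region whose main start lay in an all-library region, and genes with more than 1 region; some genes that this rule names are not reported here. The members, lists, motifs and this rule were chosen with earlier results of these data known.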

Additional observations from a re-analysis of the deposited data

How the results depend on the processing

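The higher share of alternative starts in tissue-only than in all-library regions kept its direction and passed the threshold under all 16 alternatives, with odds ratios of 2.96 (starts within 2 kb) to 4.91 (within 500 bp), among them 3.77 with well-supported transcripts and 3.89 to 4.23 with each library left out. Counts of near-start epithelium-only and mesenchyme-only regions were 612 and 796 when 1 library of the other tissue could have a peak, 163 and 132 within 500 bp, 485 and 466 within 2 kb, and 166 and 122 with well-supported transcripts; with a library left out they were 369 to 560 and 349 to 612. The alternative share of epithelium-only against mesenchyme-only regions passed no threshold, and its odds ratio was above 1 with the widest peaks (1.12), merging at 100 bp (1.15), 2 kb (1.21) and well-supported transcripts (1.46), with 0.869 to 1.02 on leaving out a library. The odds ratio for a main start in an all-library region was no longer past the threshold with the widest peaks (0.581), merging at 100 bp (0.606), 500 bp (0.622), the most upstream main start (0.710) or the longest transcript (0.523), and was 0.482 to 0.928 on leaving out a library. The CpG-rich odds ratio was 0 in the middle 400 bp, where no epithelium-only region was CpG-rich (Fisher's exact p = 0.0200), and 0.408 to 1.50 on leaving out a library, where 0.408, without epithelium library 3, also passed the threshold (Fisher's exact p = 0.0313). Motifs that differed numbered 1 with the widest peaks, 0 within 500 bp, 5 within 2 kb, 0 by centre, 0 with well-supported transcripts and 0 to 5 on leaving out a library. The per-library share kept its direction under its 12 alternatives; with a replicate block the difference was -0.764 percentage points (exact paired permutation p = 0.25, the smallest 3 pairs allow). The definition of an alternative start as over 1 kb from the main start was added after seeing the data. The causes of these shifts were not tested.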

Other observations

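Tissue-only regions that were not near a protein-coding start were also set against the starts of long non-coding RNAs. Of 9938 such epithelium-only regions 244 (2.46%) lay within 1 kb of a non-coding start and 100 covered it, and of 7326 mesenchyme-only regions 141 (1.92%) lay within 1 kb and 38 covered it. No share over all regions is set beside these counts, so they are a description only. The widest epithelium-only region of this kind was that of Gm7607 on chromosome 9, with peaks of 1223, 1509 and 1741 bp in the 3 epithelium libraries and none in mesenchyme, and it covered the start. The widest mesenchyme-only region was that of 5430402P08Rik on chromosome 7, with 985, 919 and 699 bp in the mesenchyme libraries and none in epithelium, 27 bp from the start. The regions of Gm45625, with 1364, 1352 and 1115 bp in epithelium, and of Gm12126, with 623, 690 and 651 bp in mesenchyme, were next to them in width.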
